A study of Mus musculus with 8 samples.

Results

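The nuclear-encoded subunits of the mitochondrial respiratory chain and of ATP synthase were examined in the ascending aorta of Fbn1mgR/mgR and wild-type mice. Members were taken by gene symbol, from rows of the deposited array table with 1 symbol. The families were Nduf (complex I), Sdh (complex II), Uqcr (complex III), Cox5 to Cox8 (complex IV) and Atp5 (ATP synthase), without Cox7a1 and Cox8b. The pattern of symbols did not match Cox4i1 and Cox4i2, which are given below with further subunits. Where a gene had several rows, the row with the highest mean over the 8 arrays stood for it. This gave 77 genes from 81 rows, of 30145 genes with a row of 1 symbol: 33 of complex I, 4 of complex II, 8 of complex III, 14 of complex IV and 18 of ATP synthase.

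The respiratory chain sits in the inner mitochondrial membrane. Complexes I and II pass electrons from NADH and succinate to ubiquinone, complex III passes them on to cytochrome c, and complex IV passes them to oxygen. Complexes I, III and IV pump protons, and ATP synthase uses the proton gradient to make ATP. Brown adipocytes, which surround parts of the aorta as perivascular fat, are rich in mitochondria and let protons leak back through the uncoupling protein Ucp1, while contractile smooth muscle, the main cell of the aortic wall, has fewer mitochondria.

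Total RNA of snap-frozen ascending aorta from male mice aged 10 weeks was measured on 8 Clariom D arrays (Affymetrix), which cover the mouse transcriptome. The 4 arrays mgR611, mgR612, mgR613 and mgR614 came from mice homozygous for mgR, an allele of the fibrillin-1 gene Fbn1 that lowers its expression and models severe Marfan syndrome. The 4 arrays WT675, WT676, WT742 and WT744 came from wild-type mice; both genotypes were bred from heterozygous parents on a C57BL/6J background and none carried a further allele or treatment according to the labels. Below, the values of a gene are log2 signals in that order of arrays.

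Nothing in the labels states that each array had an animal of its own, so p-values speak only for the spread among these samples, in part perhaps technical. Fbn1 was not analysed here, which leaves the genotype labels without a check on its transcript. Array medians lay between 3.95 and 4.07. Smooth muscle markers were bright on all arrays, with means of their 6 genes between 14.04 in mgR614 and 15.33 in WT742. All 7 macrophage markers were higher in the mutant arrays (limma adjusted p up to 0.0407 for Csf1r). Markers of brown fat set 2 arrays apart. Ucp1 was 13.92 in mgR614 and 14.62 in WT676, against 8.49, 8.46 and 8.30 in the other mutant arrays and 7.40, 5.59 and 10.21 in the other wild-type arrays. The mean of 9 brown fat markers was 10.07 in mgR614 and 10.34 in WT676 and between 6.15 and 7.88 on the other 6 arrays. Results are therefore given with and without these arrays, 1 of each genotype. In such bulk RNA, more cells of a type and more RNA per cell cannot be told apart.

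Promoter sequences of the members were searched for motifs of 4 factors known to act on genes of oxidative phosphorylation. RefSeq windows (GRCm38.p6) from 250 bases before to 50 after the start were found for 64 members (69 windows). The palindrome of 10 bases read by nuclear respiratory factor NRF-1, which stands in capitals in the Atp5k and Cox6a1 sequences here, was in 4 members (6.25%, against 1.07% of 27025 genes with such a window). The ETS motif CCGGAAGT, which GABP reads, was in 5 members (7.81% against 4.31%). The motif TCAAGGTCA of the estrogen-related receptors was in Atp5g3 and Sdhd (3.12% against 0.466%). The YY1 motif AAGATGGC was in 11 members (17.2% against 3.19%), in 9 of them between bases 23 and 46 after the start. Both strands were searched, and no motif overlapped another in the sequences printed here. At least 1 motif was present in 22 members (34.4%, against 8.67% of all genes), and in 2 of the 10 with a window among the genes called below for a rise with Ucp1 (Ndufb8 and Uqcrc1). A match of letters is a description and not a binding site.

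The 200 bases before the start are shown for 4 members that differ in how they behaved across the arrays, each with 1 such motif in capitals. Atp5k (NRF-1; chr5:108434400-108434599, minus strand) and Uqcr11 (ETS; chr10:80406822-80407021, minus strand) were high on both arrays with high Ucp1. Cox6a1 (NRF-1; chr5:115348959-115349158, minus strand) was high on 1 of them, and Atp5g3 (estrogen-related receptors, read on the opposite strand; chr2:73911327-73911526, minus strand) was not the highest of its genotype on either.
Atp5k: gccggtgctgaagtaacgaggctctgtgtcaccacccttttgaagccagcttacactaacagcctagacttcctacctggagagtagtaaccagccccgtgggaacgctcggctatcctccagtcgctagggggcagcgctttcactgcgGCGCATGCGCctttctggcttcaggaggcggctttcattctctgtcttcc
Uqcr11: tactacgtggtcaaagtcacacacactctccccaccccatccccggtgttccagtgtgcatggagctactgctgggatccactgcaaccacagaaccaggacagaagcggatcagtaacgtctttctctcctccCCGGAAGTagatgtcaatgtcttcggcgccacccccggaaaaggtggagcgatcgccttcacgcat
Cox6a1: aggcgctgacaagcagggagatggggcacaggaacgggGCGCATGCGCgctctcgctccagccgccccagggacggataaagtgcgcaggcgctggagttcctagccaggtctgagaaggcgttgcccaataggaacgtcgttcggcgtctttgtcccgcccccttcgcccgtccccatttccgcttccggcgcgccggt
Atp5g3: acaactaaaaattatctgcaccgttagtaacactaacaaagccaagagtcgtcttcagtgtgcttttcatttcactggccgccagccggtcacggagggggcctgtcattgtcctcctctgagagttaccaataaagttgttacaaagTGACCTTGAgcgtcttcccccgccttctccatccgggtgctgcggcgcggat

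The first comparison asked whether subunit transcripts have different levels in the 2 genotypes. No member was called higher or lower: of the 75 members bright enough to test, 0 passed an adjusted p of 0.05 in limma (fitted over all rows, Benjamini-Hochberg over the 32957 tested), and 0 had an unadjusted p under 0.05 in either direction. The background was 2.1% of tested rows called (1.54% higher and 0.558% lower) and 14.2% with an unadjusted p under 0.05. The genotypes overlapped in all 75 members, while 8.92% of tested rows had genotypes that did not overlap. The median difference of the members, Fbn1mgR/mgR minus wild-type, was -0.025 on the log2 scale (31 above 0, 43 below and 1 at 0), against -0.0175 over all tested rows. Differences ran from -0.49 for Cox7a2l to 0.45 for Cox6b2. A p that misses the threshold does not show that the genotypes are alike: the 95% interval lay within 1 log2 unit of 0 for 65 of the 75 members, and the median standard error was 0.24 for members against 0.151 for all tested rows.

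**Figure D1:**
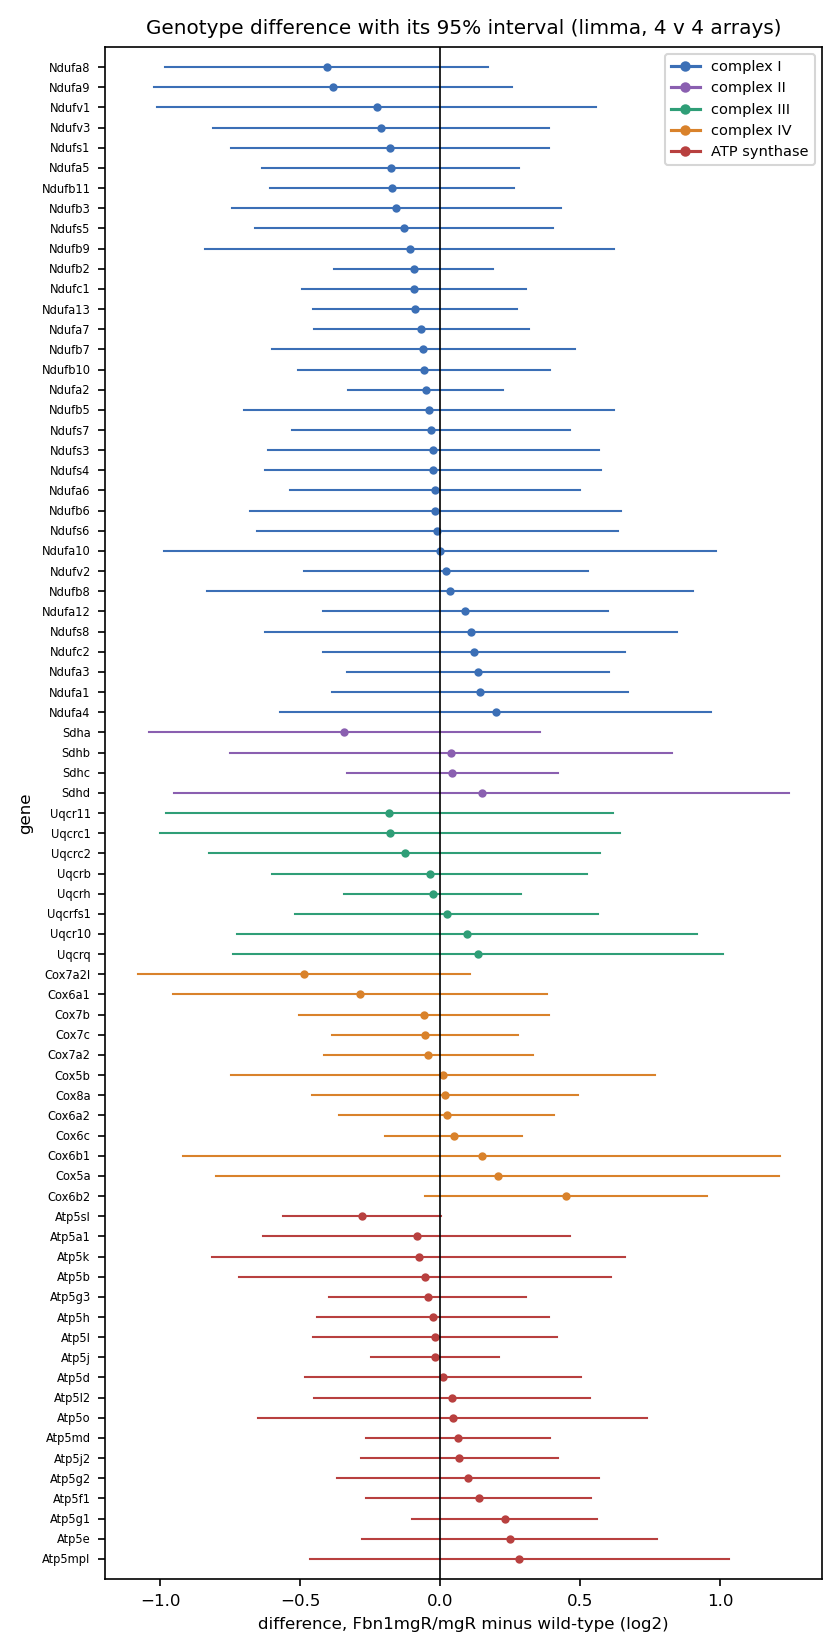
Genotype difference of each of the 75 tested genes (log2, Fbn1mgR/mgR minus wild-type, horizontal axis), grouped and coloured by complex; points are differences, lines are 95% intervals from limma with 4 arrays per genotype. Every interval spans 0, from Cox7a2l at -0.49 to Cox6b2 at 0.45.

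Complex I oxidises NADH, and its 33 members had a median difference of -0.05 (8 above 0, 24 below and Ndufa10 at 0). Ndufa8, an accessory subunit that faces the intermembrane space, had the smallest p: its signals were 9.72, 10.16, 10.20 and 10.48 in the mutant arrays and 10.46, 11.24, 10.07 and 10.41 in the wild-type arrays. WT676 lay above all others, and the ranges overlapped. The difference was -0.41 ± 0.257 (SE; limma adjusted p = 0.554), and it was -0.17 without WT676 and -0.27 without mgR611. Ndufa9, an accessory subunit at the junction of the peripheral and the membrane arm, had signals of 13.11, 13.12, 12.85 and 13.53 against 13.48, 14.36, 12.86 and 13.44. Here too WT676 was highest, while mgR613 and WT742 were the lowest arrays at nearly the same level. Its difference was -0.38 ± 0.285 (SE; limma adjusted p = 0.631), and it was -0.11 without WT676 and -0.61 without WT742. The brightest row, that of the accessory subunit Ndufa2, spanned only 16.40 to 16.81 in mutant and 16.42 to 16.88 in wild-type aorta. Subunits that carry the electron path showed the same overlap. Ndufv1, which binds NADH through its flavin, differed by -0.23 ± 0.349, and Ndufs1, the largest iron-sulfur subunit, by -0.18 ± 0.253 (SE; limma adjusted p = 0.852 and 0.834).

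Complex II is also the succinate dehydrogenase of the citric acid cycle, and its 4 members had a median difference of 0.04. The catalytic flavoprotein Sdha had signals of 9.02, 9.11, 8.81 and 9.27 in the mutant and 9.23, 10.40, 8.74 and 9.21 in the wild-type arrays. WT676 was more than 1 log2 unit above every other array, and the remaining 3 wild-type arrays lay within the mutant range or just below it. The difference of -0.34 ± 0.312 was not called (SE; limma adjusted p = 0.71), and it was -0.0075 without WT676 and -0.56 without WT742. The membrane anchor Sdhd had 7.65, 8.24, 8.42 and 9.58 against 8.22, 9.59, 7.56 and 7.93. It had nearly the same highest value in both genotypes, in mgR614 and WT676. The difference was 0.15 ± 0.49 (SE; limma adjusted p = 0.939), with a 95% interval from -0.95 to 1.25, among the widest of the members. The brightest row was that of the iron-sulfur subunit Sdhb, with a difference of 0.04 ± 0.351 (SE; limma adjusted p = 0.983).

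In complex III, the cytochrome bc1 complex, the 8 members had a median difference of -0.03. The small subunit Uqcr11 had signals of 9.53, 10.11, 10.26 and 10.95 in the mutant and 10.32, 11.18, 9.67 and 10.41 in the wild-type arrays, a difference of -0.18 ± 0.356 (SE; limma adjusted p = 0.891). The core subunit Uqcrc1 had 10.65, 10.84, 10.70 and 11.71 against 10.99, 12.17, 10.45 and 11.01, a difference of -0.18 ± 0.365 (SE; limma adjusted p = 0.895). Both genes were highest in mgR614 and WT676 and overlapped over nearly their whole range. The difference of Uqcr11 turned to 0.045 without mgR611 and to 0.08 without WT676, and that of Uqcrc1 to 0.16 without WT676. Uqcrb, a subunit at the ubiquinone site and the brightest row, differed by -0.04 ± 0.25, and the Rieske iron-sulfur protein Uqcrfs1 by 0.02 ± 0.242 (SE; limma adjusted p = 0.974 and 0.986).

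Complex IV held both extremes. Cox6b2, the testis form of a subunit on the intermembrane side, had signals of 7.29, 7.94, 8.25 and 8.10 in the mutant and 7.77, 7.55, 7.25 and 7.21 in the wild-type arrays. In 3 mutant arrays it was above every wild-type array, and mgR611 lay among the wild-type values. The difference was 0.45 ± 0.224 (SE; limma unadjusted p = 0.0743, adjusted p = 0.414), and no alternative fit called it (adjusted p from 0.132). Cox7a2l, known for a link to supercomplexes of complexes III and IV rather than as a subunit of either alone, had 10.05, 11.08, 11.10 and 10.89 against 11.36, 11.65, 10.80 and 11.26. Whether its form in these mice acts in supercomplexes was not tested. The mutant array mgR611 was far below the rest and WT742 lay within the mutant range. The difference was -0.49 ± 0.264 (SE; limma unadjusted p = 0.0965, adjusted p = 0.465), and it was -0.24 without mgR611.

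The other complex IV members lay nearer to 0, with a median difference over the 12 tested of 0.01. Cox7a2 was the brightest row, spanning 17.39 to 17.95 in mutant and 17.34 to 18.07 in wild-type aorta. Isoforms of a subunit could be set side by side. Cox6a1, the form of most tissues, had 13.14, 13.55, 13.24 and 13.53 against 12.99, 14.54, 13.27 and 13.81, with a difference of -0.29 ± 0.297 (SE; limma adjusted p = 0.754). Its heart and skeletal muscle counterpart Cox6a2 stayed between 4.09 and 4.42 in the mutant and between 3.85 and 4.64 in the wild-type arrays. That range reaches the signals of olfactory receptor genes, which served as a guide to dim rows (median 3.38, 95th percentile 4.12). The testis forms Cox7b2 (3.52 to 3.93) and Cox8c (3.62 to 4.06) had means below the 4.01 needed for testing and were left untested. Cox6c had the single value 6.77 on all 4 wild-type arrays and on mgR613, with 6.74 and 6.76 on mgR611 and mgR612 and a higher value on mgR614.

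ATP synthase had a median difference of 0.03 over its 18 members. The smallest p of all 75 belonged to Atp5sl, now named Dmac2, which is known as an assembly factor of complex I and carries an Atp5 symbol only by sequence likeness. Its signals were 5.22, 5.45, 5.41 and 5.57 in the mutant and 5.76, 5.90, 5.48 and 5.63 in the wild-type arrays. Only mgR614 in the mutant reached into the wild-type range, above WT742. The difference was -0.28 ± 0.126 (SE; limma unadjusted p = 0.0521, adjusted p = 0.359), with a 95% interval from -0.56 to 0.0032. Atp5g1, 1 of 3 genes for the c subunit of the rotor ring, had 8.49, 8.88, 8.69 and 8.51 against 8.66, 8.24, 8.39 and 8.36. Here WT675 lay among the mutant arrays, and the difference was 0.23 ± 0.148 (SE; limma adjusted p = 0.559). The brightest row, of the small membrane subunit Atp5md, differed by 0.06 ± 0.146, and the catalytic beta subunit Atp5b by -0.06 ± 0.296 (SE; limma adjusted p = 0.91 and 0.967). The rows of Atp5g2 and Atp5l lay on other chromosomes than their genes by the row identifiers (7 in place of 15, and 5 in place of 9). The row of Atp5g2 on chromosome 15 gave a difference of -0.06 ± 0.252 and the brighter tested row of Atp5l on chromosome 9 one of 0.0025 ± 0.164 (SE; limma adjusted p = 0.96 and 0.996).

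The members varied far more among arrays of a genotype than between genotypes, and they did so together. The mean over the 75 tested members was 10.46, 10.75, 10.82 and 11.26 in mgR611 to mgR614 and 10.79, 11.43, 10.44 and 10.72 in WT675, WT676, WT742 and WT744. The array mgR614 was the highest of its genotype in 65 of the 75 members, and WT676 in 69, against 26.94% and 29.26% of all tested rows. Both held in 64 members (85.3%), against 8.55% of tested rows, and in 59 members (78.7%, against 5.12%) both arrays were above each of the other 6. At the low end stood mgR611, the lowest mutant array in 70 members (31% of tested rows), and WT742, the lowest wild-type array in 65 (28.82%). These are descriptions of 8 arrays, and rows on an array are not independent of each other.

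**Figure D2:**
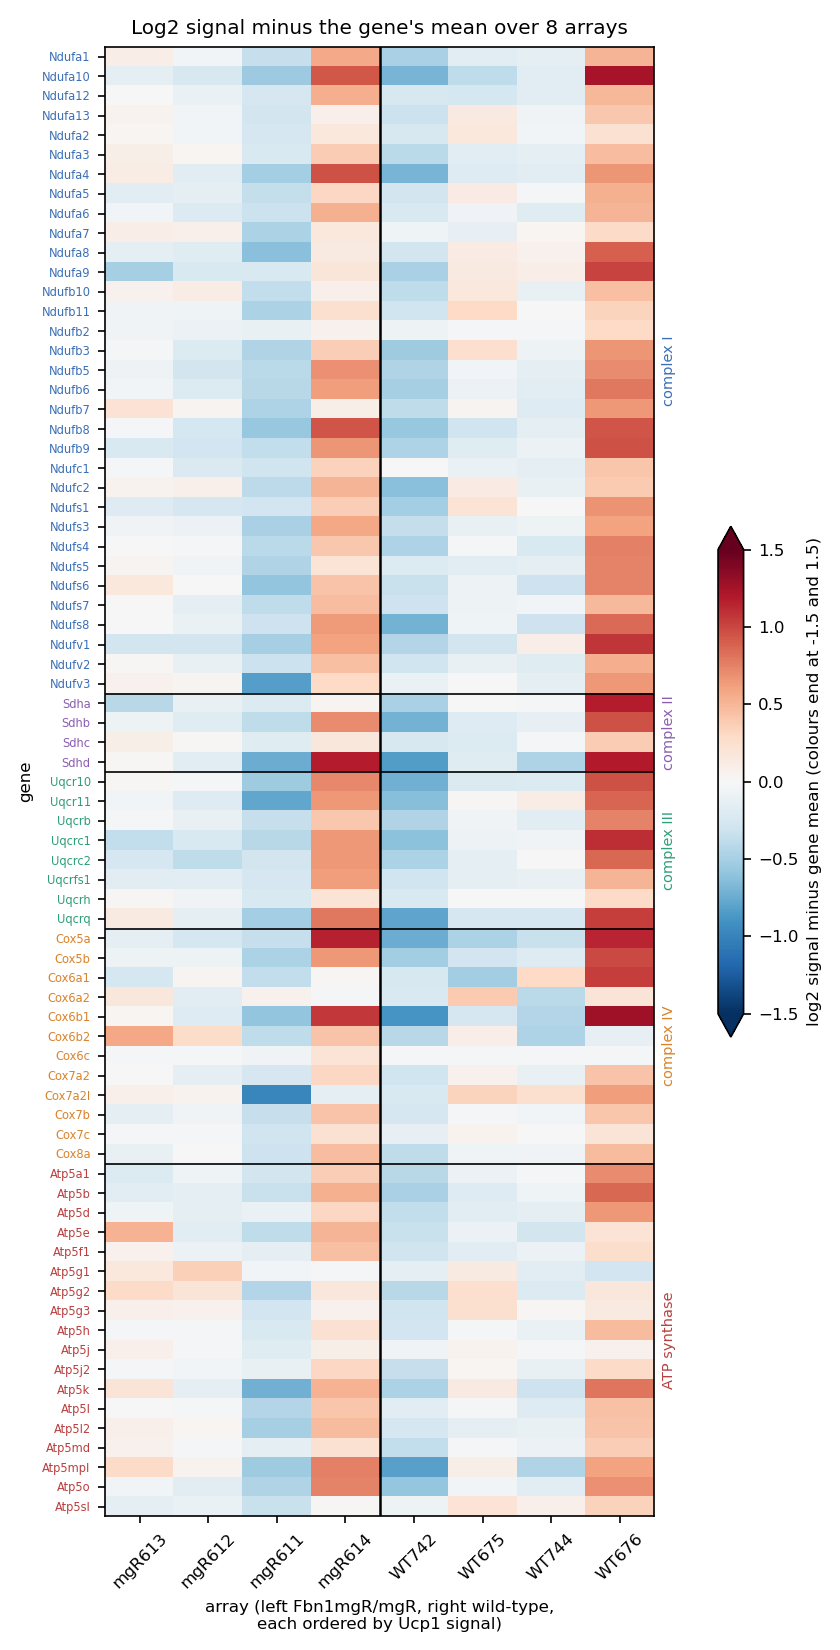
Log2 signal of the 75 tested genes minus each gene's mean over 8 arrays (colour, red above and blue below; colours end at -1.5 and 1.5). Rows are genes by complex, columns are arrays, mutant left and wild-type right, each ordered by Ucp1; mgR614 and WT676 are red for most genes, with mgR611 and WT742 mostly blue.

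All 4 members of complex II and all 8 of complex III were above the other 6 arrays in both mgR614 and WT676. Complex I had 28 of 33, ATP synthase 12 of 18 and complex IV 7 of 12. The mean of the complex III members was 12.29 in mgR614 and 12.50 in WT676, and between 11.18 and 11.62 on the other arrays. The widest steps were those of subunits from several complexes. Cox5a, a matrix-side subunit of complex IV, had signals of 12.81, 12.90, 13.03 and 14.31 in the mutant and 12.68, 14.30, 12.42 and 12.83 in the wild-type arrays. It was 1.28 above the next mutant array in mgR614 and 1.47 above the next wild-type array in WT676. Cox6b1, the common counterpart of Cox6b2, was 1.03 and 1.53 above, Sdhd 1.16 and 1.37, and the complex I accessory subunit Ndufa10 1.08 and 1.39.

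In 11 members the 2 arrays were not both the highest of their genotype: Ndufb7, Ndufb10, Cox6a1, Cox6a2, Cox6b2, Cox6c, Cox7a2l, Atp5e and the 3 genes of the c subunit. Sdha kept the order but was high in WT676 (10.40) but only 0.16 above the next mutant array in mgR614 (9.27). Cox6a1 was 14.54 in WT676, and in mgR614 (13.53) it was level with mgR612 (13.55). Atp5g1 was highest in mgR612 (8.88) and lowest in WT676 (8.24). Of the other genes for the c subunit, which encode the same mature protein, Atp5g2 and Atp5g3 were highest in mgR613 (12.15 and 10.95) and WT675 (12.12 and 11.12). Atp5g3 was nearly level in mgR612, mgR613 and mgR614 (10.94, 10.95 and 10.94). The row of Atp5g2 on its own chromosome 15 was also highest in mgR613 (9.69) among the mutant arrays. Among the wild-type arrays that row was highest in WT676 (9.88, against 9.79 in WT675). The isoforms Cox6b2 and Cox6a2 peaked in mgR613 among the mutant and in WT675 among the wild-type arrays.

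The second question was how the members vary with Ucp1 across arrays. Because 2 arrays stand apart from the other 6, a correlation over all 8 rests on them, so values are given over 8 arrays and over the remaining 6. Over 8 arrays the median Pearson's r of the 75 members with Ucp1 was 0.875, and 46 members (61.3%) had an r over 0.8, against 2.28% of tested rows. The median Spearman's rho was 0.595. The highest r was that of Sdhb, whose signals were 11.60, 11.80, 11.90 and 12.69 in the mutant and 11.78, 12.93, 11.27 and 11.86 in the wild-type arrays. It was followed by Atp5b, Ndufa10 and Uqcrc2, a core subunit of complex III. Their r was 0.965, 0.963, 0.962 and 0.961, with rho of 0.762, 0.857, 0.762 and 0.786 (unadjusted exact permutation p of r from 0.000446 for Atp5b to 0.00156 for Sdhb, two-sided). No member and no other row passed an adjusted p of 0.05 for r or rho in these exact tests over 40320 pairings (adjusted p of r at least 0.334 for these 4). The smallest p that 8 arrays can give is 2.48e-05. A single row at that p stays far above 0.05 after adjustment over the tested rows, so the lack of calls says little about the members. Unadjusted, 59 members had an exact permutation p of r under 0.05 and 15 one of rho, all with a positive sign (4.41% and 2.12% of tested rows).

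Without mgR614 and WT676 the median r fell to 0.426 and the median rho to 0.029. Positive values remained in 67 of 75 members (89.3%, against 52.9% of tested rows). An unadjusted exact permutation p under 0.05 was seen for 1 member, Atp5b (r = 0.83, p = 0.0444, 720 pairings, 2.81% of tested rows). The smallest p that 6 arrays can give is 0.00139, which could pass the adjusted threshold only if very many rows shared it. That 0 members passed it was therefore nearly fixed in advance. Among the 6 arrays r ran from -0.48 for the complex I subunit Ndufc1 to that of Atp5b. By complex, the median r over 8 and over 6 arrays was 0.857 and 0.35 for complex I, 0.888 and 0.607 for complex II, 0.924 and 0.568 for complex III, 0.812 and 0.316 for complex IV, and 0.793 and 0.289 for ATP synthase. The order of the complexes was not tested.

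**Figure D3:**
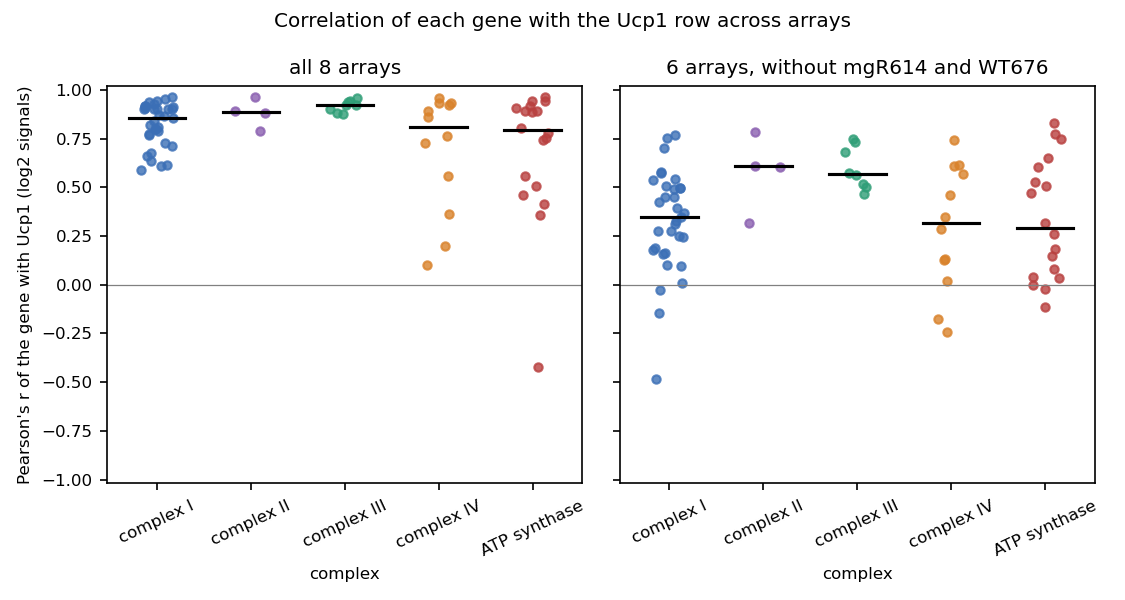
Pearson's r of each of the 75 tested genes with the Ucp1 row across arrays (vertical axis), by complex, over all 8 arrays (left) and over 6 arrays without mgR614 and WT676 (right). Points are genes and black lines are medians; the medians lie between 0.793 and 0.924 on the left and between 0.289 and 0.607 on the right.

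Within complex I the r over 8 arrays was spread over all modules. In the module that oxidises NADH it was 0.943 for Ndufv1, 0.899 for the iron-sulfur subunit Ndufv2, 0.857 for Ndufs1 and 0.61 for the small subunit Ndufv3. The core subunits next to ubiquinone, Ndufs3, Ndufs7 and Ndufs8, were alike at 0.902, 0.909 and 0.911. In the membrane arm the Ndufb subunits ran from 0.615 for Ndufb11 to 0.954 for Ndufb9. Ndufa4, grouped here by its symbol but known as a subunit of complex IV, had 0.904, with signals of 14.19, 14.54, 14.81 and 15.65 in mutant and 14.51, 15.36, 14.00 and 14.53 in wild-type aorta.

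In complex IV the r over 8 arrays ran from 0.102 to 0.957. The widest range was that of ATP synthase, from -0.42 to 0.963. In its catalytic head the alpha subunit Atp5a1 had an r of 0.945, the beta subunit Atp5b 0.963 and the delta subunit Atp5d 0.943, but the epsilon subunit Atp5e only 0.56. Atp5e was 7.80, 8.01, 8.70 and 8.69 in the mutant arrays, as high in mgR613 as in mgR614, and 8.09, 8.38, 7.84 and 7.90 in the wild-type arrays. In the peripheral stalk, which keeps the head from turning, Atp5o, Atp5f1 and Atp5h had 0.917, 0.909 and 0.891, and Atp5j had 0.458. Atp5j moved little, from 5.42 to 5.68 over the 8 arrays. The small membrane subunits Atp5j2, Atp5k, Atp5l, Atp5l2, Atp5md and Atp5mpl lay between 0.743 (Atp5k) and 0.891 (Atp5j2). The c-ring genes Atp5g1, Atp5g2 and Atp5g3 were lowest, at -0.42, 0.36 and 0.413. The row of Atp5g2 on its own chromosome gave 0.411.

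The lowest r over 8 arrays was that of Atp5g1 (-0.42), followed by Cox6a2 (0.102), Cox6b2 (0.201) and Atp5g2 (0.36). The rho of these genes was -0.45, 0.024, 0 and -0.18, and the exact permutation p of r was 0.292, 0.806, 0.609 and 0.36. For Cox6a2 the row was near the dim range throughout. Cox7a2l, with an r of 0.361, was level with Atp5g2.

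**Figure D4:**
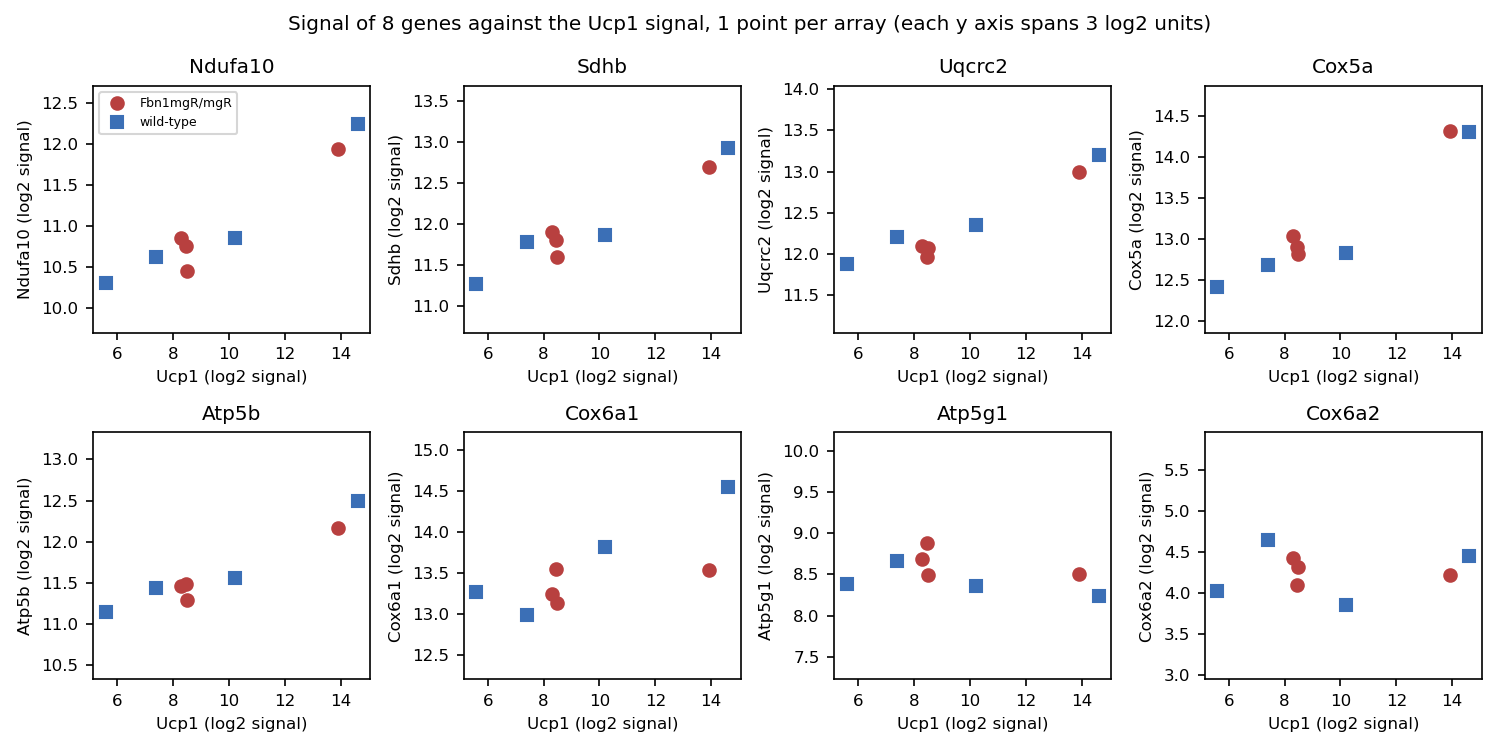
Log2 signal of 8 genes (vertical axes, each spanning 3 log2 units) against the log2 signal of Ucp1 (horizontal axis), 1 point per array, circles for Fbn1mgR/mgR and squares for wild-type. Ndufa10, Sdhb, Uqcrc2, Cox5a and Atp5b are highest on the 2 arrays at the right, mgR614 and WT676; Cox6a1 is highest on WT676 only, and Atp5g1 and Cox6a2 are not highest on either.

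A limma fit with genotype and the Ucp1 signal gave each gene a slope, in log2 units per log2 unit of Ucp1. It was above 0 for 74 of 75 members (54.3% of tested rows), and 13 members rose with Ucp1 at an adjusted p under 0.05 while 0 fell (background 0.485% and 0.00303% of tested rows). The 13 were Ndufv1, Ndufa10, Ndufb6, Ndufb8 and Ndufb9 of complex I, Sdhb of complex II, Uqcrc1, Uqcrc2 and Uqcrq of complex III, Cox5a, Cox5b and Cox6b1 of complex IV, and Atp5b of ATP synthase. Ndufv1 and Sdhb carry electron carriers, Uqcrc1 and Uqcrc2 are core subunits, and the Ndufb members belong to the membrane arm. The slope was 0.22 for Cox6b1 and Cox5a and 0.21 for Ndufa10 (limma adjusted p = 0.0397, 0.0122 and 0.0145), and the median over the 75 was 0.095 against 0.0026 over all tested rows. Atp5b had signals of 11.29, 11.49, 11.46 and 12.16 in the mutant and 11.43, 12.49, 11.14 and 11.56 in the wild-type arrays. Uqcrc2 had 12.07, 11.96, 12.09 and 12.99 against 12.20, 13.20, 11.87 and 12.35, and Ndufa10 had 10.46, 10.76, 10.86 and 11.94 against 10.62, 12.24, 10.31 and 10.85. In these genes the remaining 6 arrays spanned only 0.42, 0.48 and 0.55, with WT742 the lowest of them. These calls rest on the arrays that stand apart. The number was 0 without mgR614 (0.106% of tested rows), 0 without WT676 (0.0121%) and 1 without WT742 (0.285%). It was between 7 and 14 when another array was left out (0.346% to 0.522%). Calls over all rows thus fell as well without mgR614, WT676 or WT742. Without both mgR614 and WT676 the number of members was 0 (0.00303% of tested rows), and 66 members still had a slope above 0. The slopes themselves changed less: their median was 0.0898 without mgR614 and 0.0804 without WT676, each with 73 of 75 above 0, and 0.0493 without both. At an unadjusted limma p under 0.05, 57 members rose on all arrays (5.17% of tested rows), 51 without mgR614 (4.76%), 34 without WT676 (3.89%) and 0 without both (2.07%). With the mean of brown fat markers in place of Ucp1, 19 members rose at a limma adjusted p under 0.05 (0.665% of tested rows). That mean includes Ucp1 itself and the complex IV subunit forms Cox7a1 and Cox8b, so it is not an independent alternative.

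At equal Ucp1 the genotype difference was again called for 0 of 75 members (1.94% of tested rows), with 3 lower at an unadjusted p under 0.05 (14.2% of tested rows in either direction): Atp5sl, Ndufa8 and Ndufa9. The median difference was -0.05, and Ndufa8 and Ndufa9 had -0.44 and -0.43 (limma adjusted p = 0.263 and 0.216). Without mgR614 and WT676, 3 arrays a genotype, 0 members were called by limma (0.752% of tested rows), 0 had an unadjusted p under 0.05, and the median difference was 0.027.

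Other cell types' markers moved across the same arrays. All 8 tested brown fat markers, Cox7a1 and Cox8b among them, had their highest mutant signal in mgR614, and 7 of the 8 (all but Dio2) their highest wild-type signal in WT676. The mean of 6 adipocyte markers was 9.33 in mgR614 and 9.54 in WT676 against 6.88 to 8.16 on the other arrays. Smooth muscle markers were lowest in mgR614 (mean 14.04) but not in WT676 (14.87). The means of 7 skeletal muscle markers were between 4.42 and 4.70 on all arrays and those of 8 cardiac markers between 5.77 and 6.82, highest in WT675. Their part in the members' pattern was not tested. Cox8b and Cox7a1, left out of the members by name and both among those brown fat markers, showed wider steps than any member. Cox8b had signals of 10.17, 10.20, 9.99 and 15.18 in the mutant and 9.97, 15.26, 8.42 and 11.33 in the wild-type arrays. Cox7a1, like Cox8b a subunit form of brown fat and striated muscle, had 9.51, 9.93, 9.97 and 15.28 against 11.12, 15.41, 7.66 and 11.09. Their genotype differences were 0.14 ± 1.55 and -0.15 ± 1.68 (SE; limma adjusted p = 0.986 for both).

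The genes around the chain were read from lists of the pathway. Of 8 further tested subunits and carriers, 0 differed by genotype and 4 rose with Ucp1 (0.485% of tested rows did): Cox7a1, Cox8b, Cyc1 and Cycs (cytochrome c1 and cytochrome c). Of these calls, 1 remained without mgR614 and 1 without WT676, Cox8b in both cases, and 0 without both. Atpif1, the inhibitor of ATP synthase, differed by 0.23 ± 0.169 and the common complex IV subunit Cox4i1 by -0.18 ± 0.203 (SE; limma adjusted p = 0.623 and 0.781). Its hypoxia-linked isoform Cox4i2 ran the other way from most members, at 5.62 in mgR614 and 5.58 in WT676, the lowest values of their genotypes. Among 5 tested genes of the mitochondrial genome, 0 differed by genotype and 0 rose with Ucp1 (unadjusted, 0 and 3). Both mgR614 and WT676 were above the other 6 arrays in 4 of the 5 (80%, against 78.7% of members and 5.12% of tested rows). Their median slope was 0.112, against 0.095 for the members. Over the 6 arrays their median r with Ucp1 was -0.56 and 0 had a positive r, against a median of 0.426 for the members. The difference from the members was not tested. ND2 differed by 0.51 ± 0.38, COX2 by -0.20 ± 0.177 and ND6 by -0.14 ± 0.36 (SE; limma adjusted p = 0.635, 0.709 and 0.92). COX1 stood at the top of the scale, 19.93 on 7 arrays, where a difference cannot be read.

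Of 15 genes of the citric acid cycle and pyruvate dehydrogenase, 0 differed by genotype and 9 rose with Ucp1, among them citrate synthase Cs and the pyruvate dehydrogenase subunit Pdhb (slope 0.27), against 0.485% of tested rows. The number was 0 without mgR614, 0 without WT676 and between 3 and 9 without another array, while the median slope went from 0.161 to 0.16 and 0.145 without these 2 arrays in turn. Suclg2, a subunit of succinyl-CoA ligase, had the smallest genotype p, with a difference of -0.35 ± 0.143 (SE; limma adjusted p = 0.298), and Ogdh and Dld followed at -0.34 and 0.30. Of 13 fatty acid oxidation genes, 0 differed and 7 rose with Ucp1, among them Hadhb of the trifunctional protein (slope 0.37, limma adjusted p = 0.000909), against the same 0.485%. Hadhb was the 1 call left without mgR614, 0 were left without WT676, and the number was between 4 and 9 without another array, with a median slope of 0.228 that became 0.22 and 0.196 without these 2 arrays in turn. For both lists it was 0 without mgR614 and WT676 together. Their smallest genotype p-values belonged to Cpt1a, Hadh and Acads (-0.28, -0.56 and -0.20; limma adjusted p = 0.595, 0.732 and 0.794).

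Genes that build the complexes did not rise with Ucp1 to the adjusted threshold, though most had a slope above 0. Of 37 assembly factors 0 were called for either test, with a median slope of 0.032. Unadjusted, 2 were higher by genotype and 8 rose with Ucp1. Of 74 mitochondrial ribosome genes 0 were called, with a median slope of 0.028. Unadjusted, 4 were higher and 12 rose with Ucp1. Over all tested rows, 5.17% rose with Ucp1 unadjusted and 14.2% differed by genotype in either direction. The slope was above 0 for 35 of the 37 and 71 of the 74, against 54.3% of tested rows. Both arrays with high Ucp1 were above the other 6 in 12 of the 37 (32.4%) and 18 of the 74 (24.3%). This held for 59 of the 75 members (78.7%) and for 5.12% of tested rows. The difference between the lists was not tested. Timmdc1, a complex I assembly factor, had the smallest genotype p of its list and no overlap, with 6.13, 6.28, 6.58 and 6.43 in the mutant and 5.74, 5.97, 6.02 and 5.89 in the wild-type arrays (difference 0.45 ± 0.13, SE; limma adjusted p = 0.136). Cox18 and Ndufaf5 followed, with differences of 0.28 and 0.33. The ribosomal protein genes Mrpl54, Mrpl36 and Mrpl19 had differences of 0.51, 0.50 and 0.44 (limma adjusted p = 0.0656, 0.161 and 0.27). Of 13 regulators 0 were called by genotype or slope (unadjusted, 0 by genotype and 3 rising with Ucp1). Ppargc1a, the coactivator PGC-1alpha, had 5.51, 5.92, 5.57 and 7.80 in the mutant and 6.79, 7.58, 6.44 and 6.67 in the wild-type arrays. In 3 of the mutant arrays it was below all wild-type arrays, mgR614 was above them, and the difference was -0.67 ± 0.484 (SE; limma adjusted p = 0.616). Gabpb1 and Tfb1m followed with differences of 0.15 and -0.21 (SE 0.1 and 0.162).

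Outside the members, the genes whose 8 signals were most like the members' mean were Pla2g16, Kif21a, Dhdh, Gm5436 and Acadm, with r of 0.998, 0.996, 0.991, 0.99 and 0.986 over 8 arrays and 0.994, 0.982, 0.956, 0.952 and 0.914 over the 6. Pla2g16, an adipocyte phospholipase, had 7.17, 7.75, 7.81 and 8.91 in the mutant and 7.78, 9.28, 7.07 and 7.67 in the wild-type arrays. Kif21a was near the dim range and moved little, from 4.29 in WT742 to 4.57 in WT676. These 5 were taken as the highest of all rows with 1 symbol, so their r is a description.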

How the data were processed

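Members and gene lists were chosen with earlier results of these data known. The authors deposited normalized log2 signals per transcript cluster. Transcriptome Analysis Console is the tool given in the submitters' processing notes; its normalization method is not given in the sources used here. Platform symbols named the rows; RefSeq (GRCm38.p6) matched 75 of 77 members and renamed 2. In addition, 4 rows that named a member with another gene were left out. Whether probes also match pseudogene copies was not tested.

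Groups came from the labels. Rows with a mean signal above 4.01, the median, were tested (32957 of 65956) with limma 3.58.1 in R 4.3.3 (lmFit, eBayes with an intensity trend over all rows) and Benjamini-Hochberg adjustment over the tested rows. Correlations used exact two-sided permutation of arrays (smallest p 2.48e-05 for 8 arrays and 0.00139 for 6). Python 3.11.15, pandas 2.3.3 and matplotlib 3.10.9 served for the rest. The fit was also tested on simulated data with the means and spreads of the real rows. It recovered 61% of 100 changes of 1 log2 unit and 96% of 100 changes of 2, and it called 12 unchanged rows. The changes were placed at random among tested rows, not in the members.

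Named in full were, per complex, the 2 members with the smallest p and the brightest, then Cox6a1 and Cox6a2, the 4 highest and 4 lowest r with Ucp1, 3 genes per pathway list by p, and 5 genes most like the members' mean. Widest steps, exceptions and motif examples were chosen after their values were seen. The alternatives covered filters, scalings, variance models, covariates and arrays left out. The number of arrays limits the precision.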

Additional observations from a re-analysis of the deposited data

Results flagged for a closer look

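Over the 75 tested members, the means of the 5 complexes and the genes Ucp1, Cox7a1, Cox8b and Cox4i1, 168 groups of 4 arrays were examined for 1 array far from the other 3. The gap to the nearest array, as a share of the group's range, was above Dixon's 95% critical value for 4 samples in 17 groups. Chance gives this in about 1 of 20 groups, and groups on the same arrays are not independent.

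The array mgR614 was the high one in 10 groups. Among members these were Uqcrfs1 (0.898), Cox6c (0.885), Uqcrc2 (0.874), Ndufb9 (0.865), Cox5a (0.853), Ndufs1 (0.848) and Atp5d (0.844). Outside the members they were Ucp1 (0.966), Cox8b (0.96) and Cox7a1 (0.92). WT676 was the high array for the complex I subunits Ndufs5 (0.926), Ndufa12 (0.868) and Ndufb2 (0.838). Ndufs5 had 7.46, 8.37, 7.42 and 7.49 in the wild-type arrays.

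The array mgR611 was the low one for Atp5g3 (0.972), Ndufb10 (0.917), Ndufa7 (0.873) and Atp5g2 (0.836). Atp5g3 had 10.59 there and 10.94, 10.95 and 10.94 on the other mutant arrays.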

How the results depend on the processing

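No paired analysis was possible because the genotypes share no replicate numbers. The count of members called by genotype was 0 higher and 0 lower in each of the 23 alternatives. The median difference of each complex moved by less than the spread of its array means in all 23, although its sign could turn (complex II from -0.21 to 0.27). Of single genes, leaving out 1 array in turn moved the difference of Sdhd between -0.22 (without mgR614; -0.11 without WT742) and 0.57, that of Uqcr11 between -0.43 and 0.079 (without WT676; 0.045 without mgR611), and that of Uqcrc1 between -0.43 and 0.16 (without WT676). Without WT676, Sdha came to -0.0075, Ndufa9 to -0.11 and Ndufa8 to -0.17, and without mgR611 Cox7a2l came to -0.24. The count rising with Ucp1 was 13, against 0.485% of tested rows. It became 20 with array weights (0.725% of rows), 7 with no filter on dim rows (0.182%) and 7 with median centring (0.443%). It was 0 without both high-Ucp1 arrays (0.00303%), and leaving out 1 array gave 0 to 14 (0.0121% to 0.522%). Members with r over 0.8, 46 (2.28% of tested rows), became 4 by Spearman's rho and 1 without both arrays. Other alternatives gave 36 to 56. For these alternatives of r the share over all rows was not computed. Of the pathway lists, 1 mitochondrial ribosome gene was called higher with quantile normalization and 1 without mgR611, from 0 (0 to 1 with an array left out). The covariate alternatives for the rise with Ucp1, the moderation over tested rows only and the rows on the genes' own chromosomes were chosen after seeing the data. With 4 arrays a genotype, the precision allows differences of about 1 log2 unit or less to pass unseen for many members, and larger ones for some. Rows near the dim range or the ceiling of 19.93 are compressed.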
